A study of Arabidopsis thaliana with 8 samples.

Results

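Chloroplast-encoded genes of Arabidopsis thaliana were followed on 8 ATH1 arrays, the 1-colour Affymetrix chip of this species. A probe set on it is a group of short oligonucleotides read out as 1 signal. A probe set was a member if the platform annotation names 1 gene for it and the RefSeq gene table places that gene on the chloroplast genome. This gave 69 probe sets for 69 genes, out of 22746 probe sets in all, of which 13513 name 1 gene each. A further 8 probe sets name both copies of 1 of 7 chloroplast genes and are described apart. All 69 members are measured by probe sets of the plain kind (_at), whose probes were designed for 1 transcript.

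The 4 arrays of line 15B carry RNA of an ethyl methanesulfonate mutant. It was derived from the line on the other 4 arrays, called the silenced parent here. Per the labels, the silenced parent is a Landsberg erecta (Ler) plant with an added chalcone synthase (CHS) gene, homozygous for 1 insert, which silences the resident CHS gene TT4. Both groups thus share the ecotype and the silencing insert. The title of the series names hog1. No label names the gene altered in 15B, which is 1 mutant line. All plants grew on agar (0.7%) with 1% sucrose at 22 degrees C and 18 h light after 3 days at 4 degrees C, and total tissue was taken at growth stage 1.04. Each of the 4 replicates, described as biological, pooled 10 plants.

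Chloroplasts keep a small genome of their own, inherited from a cyanobacterial ancestor. It encodes core subunits of the photosynthetic complexes, the large subunit of Rubisco, the NDH complex of cyclic electron flow, a bacterial type RNA polymerase and part of the ribosome. Most other chloroplast proteins are encoded in the nucleus and imported. Many plastid genes are transcribed together in long units that are then cut and edited. The plastid-encoded polymerase (PEP) transcribes most photosynthesis genes, and a nuclear-encoded polymerase (NEP) transcribes a few housekeeping genes, the rpoB unit among them. Plastid messages mostly lack the long poly(A) tail of nuclear messages, and a short tail marks them for decay. Per the labels, the complementary DNA was primed with oligo(dT), so the signal of a plastid message rests on priming at short tails or at runs of A within it. How this bears on the values was not tested.

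Line 15B and the silenced parent differed past the threshold for none of the 69 chloroplast-encoded genes. The comparison was run with limma across all 13822 probe sets with a mean signal of at least 30, a set that holds all 69 members, and adjusted p is the Benjamini-Hochberg value over that whole set. With a threshold of 0.05, 0 members were higher and 0 lower in 15B. Over all tested probe sets 6.70% passed, 3.13% higher and 3.57% lower. The smallest adjusted p of a member was 0.0851. At an unadjusted p under 0.05 there were 4 of 69 members, all lower in 15B (psbB, psbN, atpI and ycf3). Of all tested probe sets 21.5% had such a p, 12.8% with 15B lower. The signals of the 2 groups overlapped for every member (0 of 69 apart), whereas 13.6% of all tested probe sets did not overlap, 5.58% with 15B above and 8.07% with 15B below.

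Differences are given as 15B minus silenced parent on the scale log2(signal + 10). Their median over the members was -0.08, against -0.03 over all tested probe sets, and 23 members were positive and 46 negative. Of all tested probe sets 6132 were positive and 7690 negative. With each array centred on its median, 30 members were positive. In the main fit, values of the members lay between -0.61 for psbB and 0.22 for rpoB. The median standard error (SE) from the limma fit was 0.11 for the members and 0.12 for all tested probe sets. The median standard deviation (SD) of a member within its group, on the same scale, was 0.163 in 15B and 0.183 in the silenced parent. For all other tested probe sets it was smaller, 0.145 in 15B and 0.153 in the silenced parent. For 68 of the 69, the 95% interval of the difference lay within a 2-fold change either way, and for 60 within a 1.5-fold change. The exception at 2-fold was psbB, whose interval reached down to -1.06. On the positive side the intervals reached at most 0.75, for atpA. Single arrays weighed heavily on these small differences. Of the 30 members named by rule, 25 moved by over 1.5 times, or changed sign, when some 1 array was left out. The 5 that did not were psbN, atpI, ycf3, rpoC2 and petG, all lower in 15B.

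**Figure D1:**
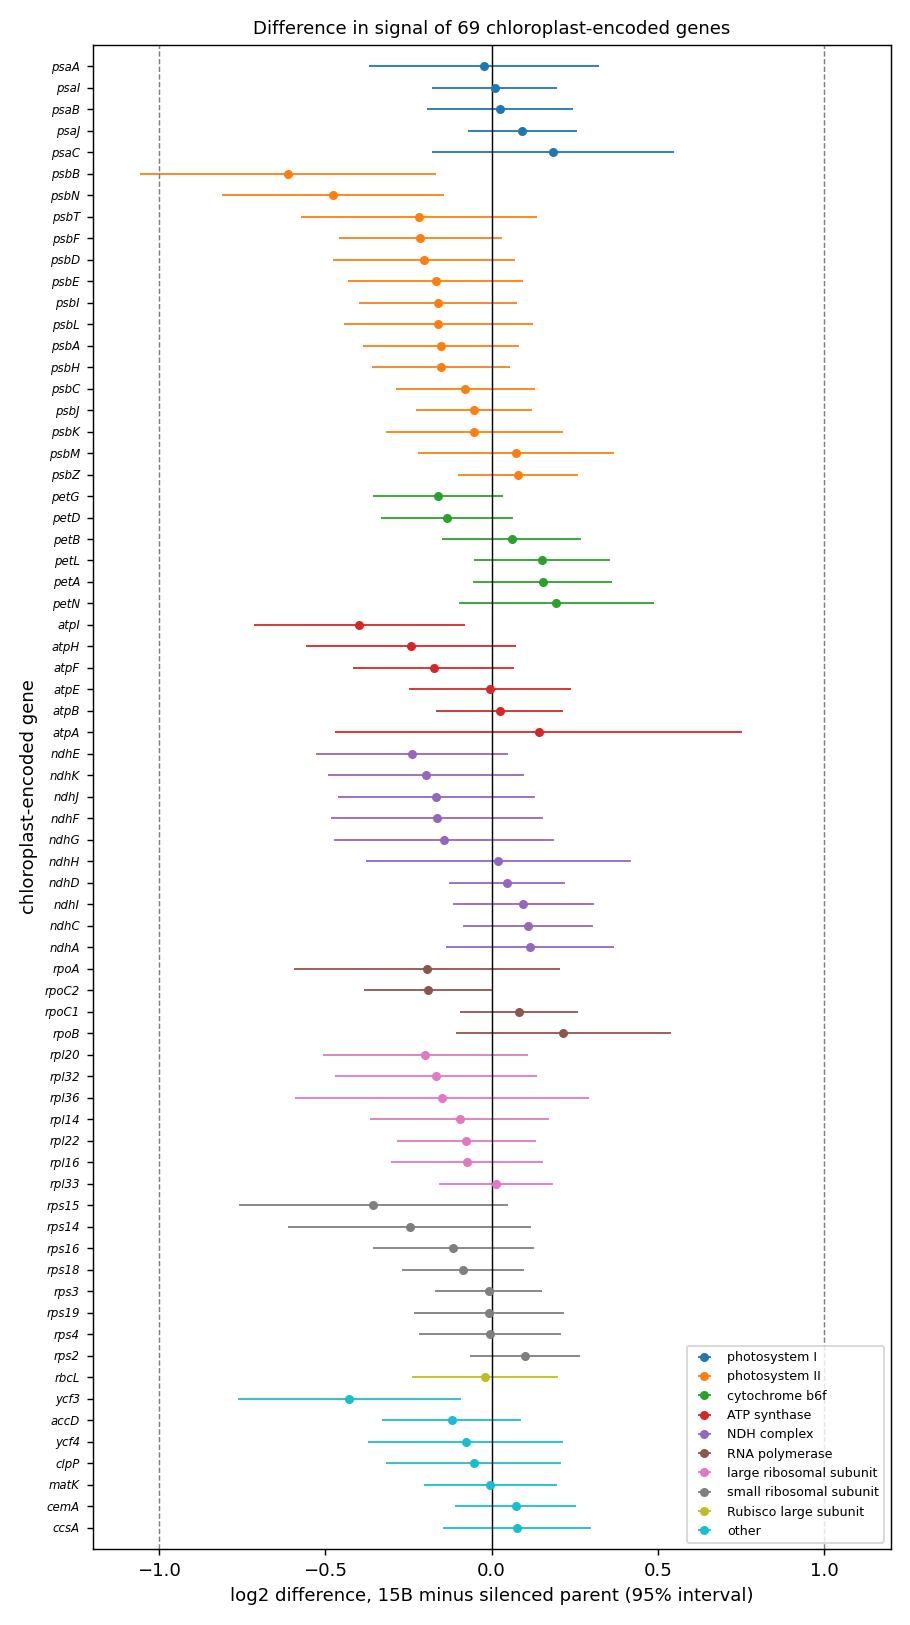
Differences in signal (15B minus silenced parent, log2 scale) of the 69 chloroplast-encoded genes, grouped by role, with 95% intervals from the limma fit as bars (n = 4 arrays each). Dashed lines mark a 2-fold change; the interval of psbB alone crosses 1 of them, and 65 intervals include 0.

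Subunits of photosystem II, which splits water and passes its electrons on, were the group with the lowest median. Of 15 psb genes, 13 were negative and 2 positive, with a median of -0.16, and 0 passed the test. The signal of psbB, which encodes the inner antenna protein CP47, was 876, 433, 650 and 836 on the 4 arrays of 15B and 997, 1152, 1302 and 771 on those of the silenced parent. Replicate 2 of 15B was the lowest of all 8, and replicate 4 of the silenced parent lay among the 15B values. The difference of psbB was -0.61 (SE 0.20, adjusted p = 0.0969 by limma). With 1 array left out it was lowest without replicate 4 of the silenced parent, at -0.75 (adjusted p = 0.0524). It was highest without replicate 2 of 15B, at -0.40 (adjusted p = 0.204).

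The gene psbN, whose product is needed for photosystem II assembly and which lies in the psbB region on the opposite strand, was among the dimmer members. It gave 81.3, 73.0, 64.1 and 69.6 in 15B, against 79.3, 86.9, 140 and 119 in the silenced parent. The groups met only where replicate 1 of 15B exceeded replicate 1 of the silenced parent. The psbN difference was -0.48 (SE 0.15, adjusted p = 0.0851), and leaving out replicate 1 of the silenced parent moved it past the threshold (-0.59, adjusted p = 0.0308). Probe sequences were not used here, so the strand measured was not checked.

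The reaction centre genes of photosystem II had smaller differences. For psbA, the gene of the D1 protein that is replaced continually in light, the signal averaged 2400 ± 153 in 15B and 2694 ± 442 in the silenced parent (SD, n = 4). The psbA difference was -0.15 with an interval from -0.39 to 0.08. For psbD, the gene of the partner protein D2, it was -0.20 (SE 0.13), and for psbC, the gene of the antenna protein CP43, -0.08 (SE 0.10). Both subunits of cytochrome b559 were close to psbD, psbF at -0.21 (SE 0.11, adjusted p = 0.296) and psbE at -0.17. The only positive values were 0.08 for psbZ and 0.07 for psbM, which encode small membrane subunits. The other 6 psb genes, all for small subunits, lay between -0.22 and -0.05.

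Photosystem I, which uses light to reduce ferredoxin, had 4 of 5 genes positive and a median of 0.02, with 0 past the test. The large reaction centre gene psaB averaged 4323 ± 462 in 15B and 4255 ± 519 in the silenced parent (SD, n = 4), a difference of 0.02 (SE 0.10). Its partner psaA had 2413, 1995, 1555 and 1319 in 15B and 2041, 1816, 1875 and 1515 in the silenced parent. The 15B arrays of psaA thus spanned the whole range of the silenced parent and more, and the difference was -0.02 (SE 0.16). For psaC, which encodes the subunit that carries the terminal iron-sulfur clusters, the 15B arrays spread in another pattern. They gave 1038, 693, 915 and 1431 in 15B, against 964, 838, 874 and 795 in the silenced parent. Replicate 4 of 15B was highest and replicate 2 lowest for psaC, and the difference was 0.19 (SE 0.17, adjusted p = 0.568). It was 0.01 without replicate 4 of 15B and 0.35 without replicate 2. The small subunit genes psaJ and psaI were at 0.09 and 0.01.

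The cytochrome b6f complex links both photosystems, and 4 of its 6 plastid genes were positive, with a median of 0.11 and 0 past the test. Its cytochrome f gene petA averaged 1908 ± 276 in 15B and 1702 ± 81.1 in the silenced parent (SD, n = 4), a difference of 0.15 (SE 0.10, adjusted p = 0.386). The small subunit genes petN and petL were at 0.19 (SE 0.14) and 0.15 (SE 0.09). The small subunit gene petG was at -0.16 (SE 0.09, adjusted p = 0.325) and gave 82.0, 76.5, 76.0 and 77.6 in 15B and 89.9, 96.4, 88.3 and 79.9 in the silenced parent. Of its 4 silenced parent arrays only replicate 4 lay below the highest 15B value. The cytochrome b6 gene petB was at 0.06 and petD, the gene of subunit IV, at -0.13.

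**Figure D2:**
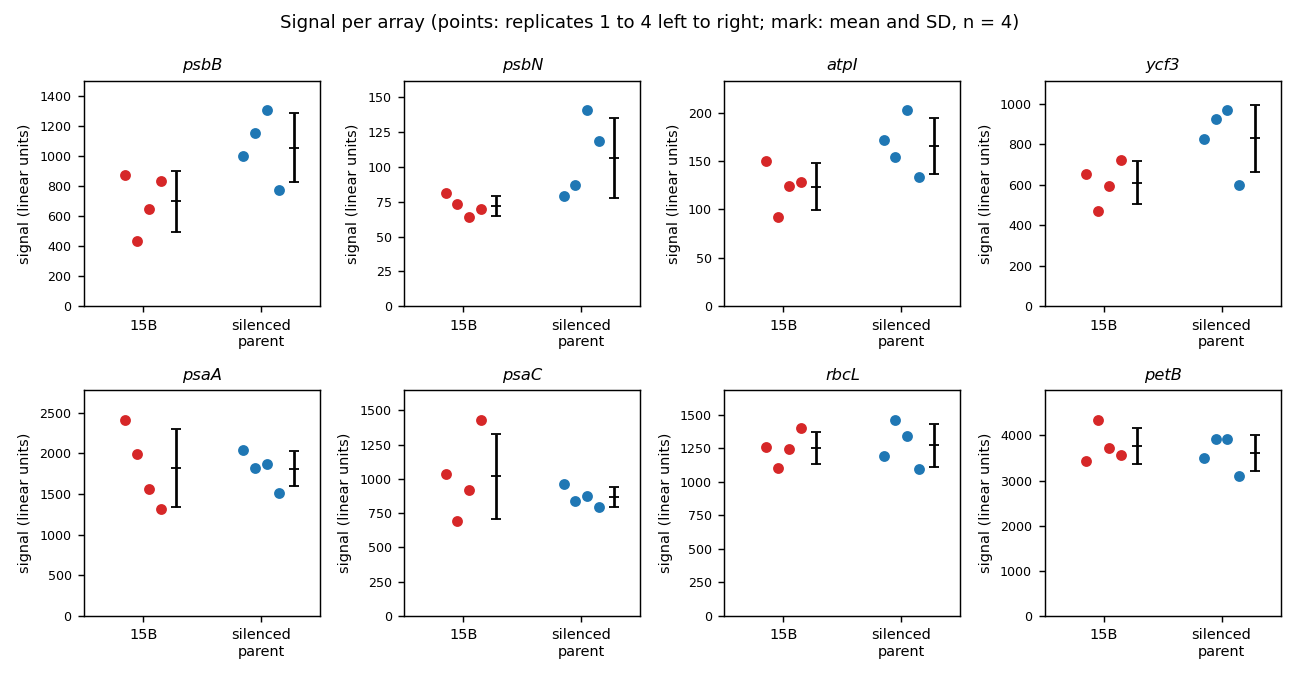
Signal on a linear scale on each array for 8 chloroplast-encoded genes, with replicates 1 to 4 from left to right in each group and the mean with SD (n = 4) beside them. The groups overlap in all 8 panels; psbB averaged 699 in 15B and 1055 in the silenced parent, while rbcL averaged 1254 in 15B and 1274 in the silenced parent.

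Plastid genes of ATP synthase, which makes ATP from the proton gradient, had 2 of 6 positive and a median of -0.09. The membrane subunit gene atpI gave 150, 92.2, 124 and 129 in 15B and 172, 154, 202 and 134 in the silenced parent. Only replicate 1 of 15B reached into the silenced parent range for atpI, and the difference was -0.40 (SE 0.15, adjusted p = 0.129). The neighbouring membrane subunit genes atpH and atpF were at -0.24 (SE 0.15) and -0.17 (SE 0.11). At the end of the same unit atpA, the gene of the alpha subunit, was the least stable member, with 702, 1170, 2304 and 889 in 15B and 816, 982, 1077 and 1316 in the silenced parent. Replicate 3 of 15B stood alone at the top for atpA, the difference was 0.14 (SE 0.28), and without that array it was -0.19. The beta and epsilon subunit genes atpB and atpE, a unit of their own, were at 0.02 and -0.01 (SE 0.09 and 0.11).

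Rubisco fixes carbon dioxide, and its large subunit gene rbcL was close to level. Signals of rbcL were 1262, 1102, 1247 and 1403 in 15B and 1195, 1464, 1340 and 1095 in the silenced parent. The groups overlapped throughout, and the difference was -0.02 with an interval from -0.24 to 0.20.

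The NDH complex returns electrons from ferredoxin to plastoquinone, and its 10 genes were split evenly, 5 positive and 5 negative, with a median of -0.06 and 0 past the test. The lowest was ndhE at -0.24 (SE 0.13, adjusted p = 0.326). Its signals were 1001, 786, 995 and 862 in 15B and 991, 1448, 1009 and 910 in the silenced parent, where replicate 2 stood above the rest. Without that array ndhE was at -0.10, and ndhK and ndhJ were lower, at -0.16 and -0.11. Without replicate 4 of the silenced parent ndhE was at -0.32. The highest was ndhA at 0.12 (SE 0.12). Within the neighbouring genes ndhC, ndhK and ndhJ, ndhC was at 0.11, ndhK at -0.20 (SE 0.14) and ndhJ at -0.17 (SE 0.14).

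Genes of the plastid-encoded RNA polymerase core gave no common direction, with 2 of 4 positive, a median of -0.05 and 0 past the test. The beta subunit gene rpoB was dim, at 72.8, 46.3, 47.6 and 45.1 in 15B and 50.4, 39.7, 37.1 and 47.5 in the silenced parent. Its difference of 0.22 (SE 0.15, adjusted p = 0.436) drew on replicate 1 of 15B, and was 0.08 without that array. In the same unit rpoC1 was at 0.08 (SE 0.08) and rpoC2 at -0.19 (SE 0.09, adjusted p = 0.242). The alpha subunit gene rpoA, which lies in the large ribosomal protein unit, was at -0.19 (SE 0.18). It was at -0.03 without replicate 2 of the silenced parent and at -0.35 without replicate 4 of 15B. Another gene transcribed mainly by NEP, accD, which encodes a subunit of acetyl-CoA carboxylase for fatty acid synthesis, was at -0.12 (SE 0.10).

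Ribosomal protein genes were mostly slightly negative, 6 of 7 for the large subunit (median -0.10) and 7 of 8 for the small subunit (median -0.05), with 0 past the test in either. In the large subunit, rpl20 was at -0.20 (SE 0.14) and rpl32 at -0.17 (SE 0.14). Without replicate 2 of 15B rpl20 was at -0.08, and without replicate 2 of the silenced parent rpl32 was at -0.02. Without replicate 4 of the silenced parent rpl20 was at -0.31 and rpl32 at -0.26. In the small subunit, rps15 had the lowest value, with 525, 430, 740 and 812 in 15B and 815, 936, 815 and 595 in the silenced parent. Its arrays overlapped widely and the difference was -0.36 (SE 0.19, adjusted p = 0.293). It was -0.19 without replicate 2 of 15B and -0.49 without replicate 4 of 15B. The gene rps14, which shares a unit with psaA and psaB, was at -0.25 (SE 0.17). It was at -0.08 without replicate 1 of 15B and at -0.37 without replicate 4 of 15B. The gene rps2 was at 0.10 (SE 0.08).

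Of the 7 remaining genes 2 were positive and 5 negative, with a median of -0.05 and 0 past the test. The lowest was ycf3, which encodes an assembly factor of photosystem I. Its signals were 655, 473, 591 and 723 in 15B, against 825, 925, 966 and 597 in the silenced parent. All 15B arrays lay below replicates 1 to 3 of the silenced parent, and replicate 4 of the silenced parent lay among them. The ycf3 difference was -0.43 (SE 0.15, adjusted p = 0.123), and without replicate 4 of the silenced parent it passed at -0.58 (adjusted p = 0.0228). A second assembly factor gene of photosystem I, ycf4, was at -0.08. The protease subunit gene clpP and the intron maturase gene matK were at -0.05 and 0.00, cemA, which encodes an envelope membrane protein, was at 0.07, and ccsA, which encodes a cytochrome c assembly protein, at 0.08.

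Genes that are transcribed together did not share 1 value. In the unit of psbB, psbT, psbH, petB and petD, differences ran from -0.61 for psbB to 0.06 for petB. In the atp unit the values were -0.40 for atpI, -0.24 for atpH, -0.17 for atpF and 0.14 for atpA, but without replicate 3 of 15B atpA was at -0.19, below atpF at -0.18. In the ribosomal protein unit all 7 members with a probe set of their own were negative, between -0.19 and -0.01. The 4 genes of the psbE unit were also all negative, from -0.21 to -0.05. The 7 genes from ndhH to ndhD, psaC included, ran from -0.24 to 0.19. No test compared neighbours with one another, and the SE of single genes was 0.07 to 0.28 over the members.

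**Figure D3:**
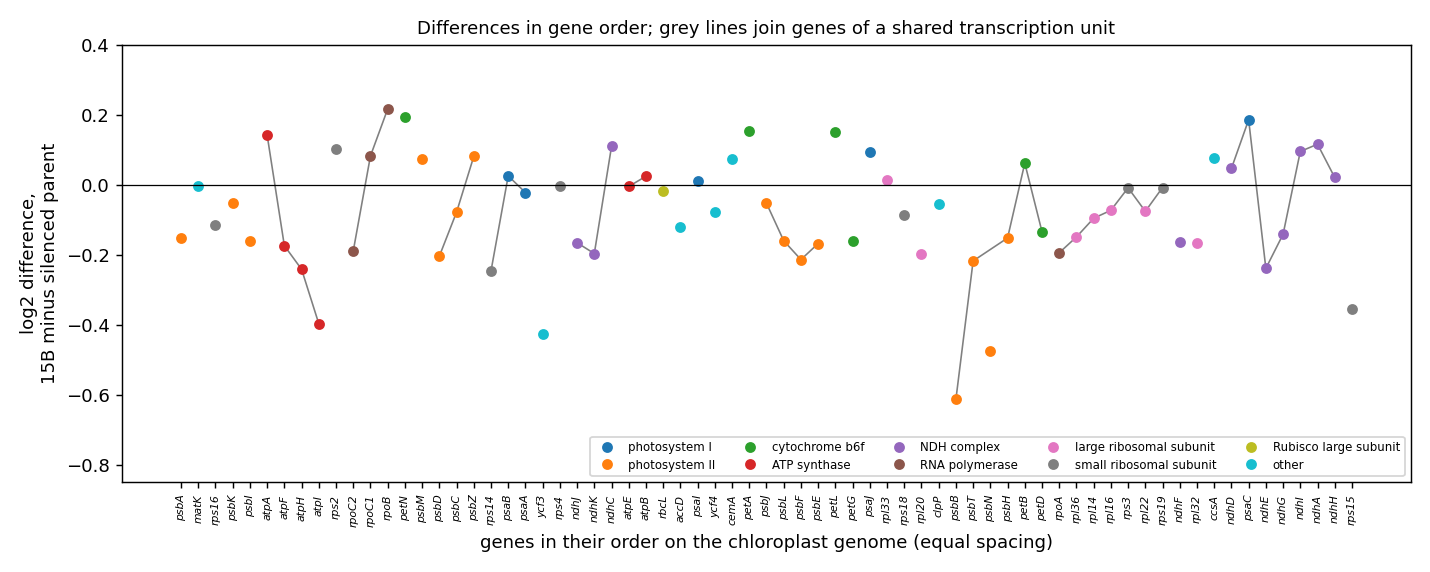
Differences (15B minus silenced parent, log2 scale) of the 69 genes in their order on the chloroplast genome of the RefSeq table, with equal spacing and grey lines joining genes of a shared transcription unit. The lowest value is that of psbB at -0.61 and the highest that of rpoB at 0.22, and 46 of the 69 genes lie below 0. Of all 13822 tested probe sets 7690 were negative.

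The 8 probe sets that name both copies of a gene in the inverted repeat were counted apart. None passed (0 of 8), 7 were negative, and 4 had an unadjusted p under 0.05, all lower in 15B, with a median of -0.24 over the 8. Over all tested probe sets 21.5% had such a p, 12.8% with 15B lower. Both rps12 probe sets, for a ribosomal protein whose message is joined from separate pieces, were among the 4. The brighter one gave 973, 773, 1074 and 1008 in 15B and 1260, 1294, 1277 and 1052 in the silenced parent. Its groups met only at replicate 3 of 15B and replicate 4 of the silenced parent, and the difference was -0.35 (SE 0.11, adjusted p = 0.0675). Without that replicate 4 both rps12 probe sets passed (adjusted p = 0.035 for this one and 0.0388 for the other); they did not without any other single array. The other rps12 probe set was at -0.45 (SE 0.17, adjusted p = 0.135), and at -0.28 without replicate 2 of the silenced parent, its highest array (adjusted p = 0.293). The large open reading frames ycf1, of the protein import apparatus, and ycf2 were at -0.35 (SE 0.12, adjusted p = 0.104, but 0.0322 without replicate 4 of 15B) and -0.46 (SE 0.17, adjusted p = 0.131). For ycf2, which was dim, all 15B arrays (25.5 to 39.9) lay below those of the silenced parent (41.0 to 73.9), as for 8.07% of all tested probe sets. The others were at -0.13 for rps7, -0.03 for rpl23, -0.02 for rpl2 and 0.08 for ndhB.

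Chloroplast-encoded genes moved together between arrays of 1 group, most clearly in the silenced parent. There, 58 of the 69 members had their lowest value of the group on replicate 4, and 63 lay below the group mean, by a median of 0.21 on the log2 scale (-0.21). Replicates 2 and 3 of the silenced parent lay above it, with medians of 0.12 and 0.11. In 15B the array medians stayed between -0.04 and 0.05. The members held 3.28%, 3.33%, 3.29% and 3.40% of all signal on the 4 arrays of 15B and 3.34%, 3.67%, 3.63% and 3.00% in the silenced parent. The mean share was 3.32 ± 0.0567% in 15B and 3.41 ± 0.309% in the silenced parent (SD, n = 4), a gap within the spread of the silenced parent.

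Replicate 4 of the silenced parent also had the highest scanner background, 198 against 77.6 to 94.3 in its group and 93.7 to 101 in 15B. Bright probe sets of the rest of the array were low on it too. For those with a mean signal of 2000 and over its median deviation was -0.16 (157 probe sets), against -0.24 for the 17 members of that brightness. For those of 1000 to 2000 it was -0.06 (335 probe sets), against -0.18 for 26 members. For dimmer ones under 1000 it was 0.02 (13261 probe sets), against -0.18 for 26 members. Within a class, members and the rest were not matched for signal. The part of the background in these deviations was not tested. Without this array the median difference of the members was -0.14, 17 members had an unadjusted p under 0.05, all lower in 15B, and 1 passed (ycf3). Over all probe sets tested without this array 6.24% passed in either direction. Their share at an unadjusted p under 0.05 was not computed for this setting. Without replicate 2 or 3 of the silenced parent the median was -0.03.

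Within 15B, brightness separated the members on replicates 1 and 2. On replicate 2 the 26 members under 1000 had a median deviation of -0.19 and the 17 of 2000 and over one of 0.08. On replicate 1 these medians were 0.13 and -0.11. The rest of the array showed 0.08 on replicate 2 and -0.09 on replicate 1 for the bright probe sets, and 0.00 on both for the dim ones. By the same brightness, the median difference between the lines was -0.16 for members under 1000, -0.05 for those of 1000 to 2000 and 0.02 for the brightest. For the rest of the array these medians were -0.03, 0.05 and 0.03. All 4 members with an unadjusted p under 0.05 belonged to the dimmest class, by the mean over all 8 arrays. That was 15.4% of its 26 members, against 21.4% of the 13261 other probe sets in it. The brightness classes were set after the values were seen.

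**Figure D4:**
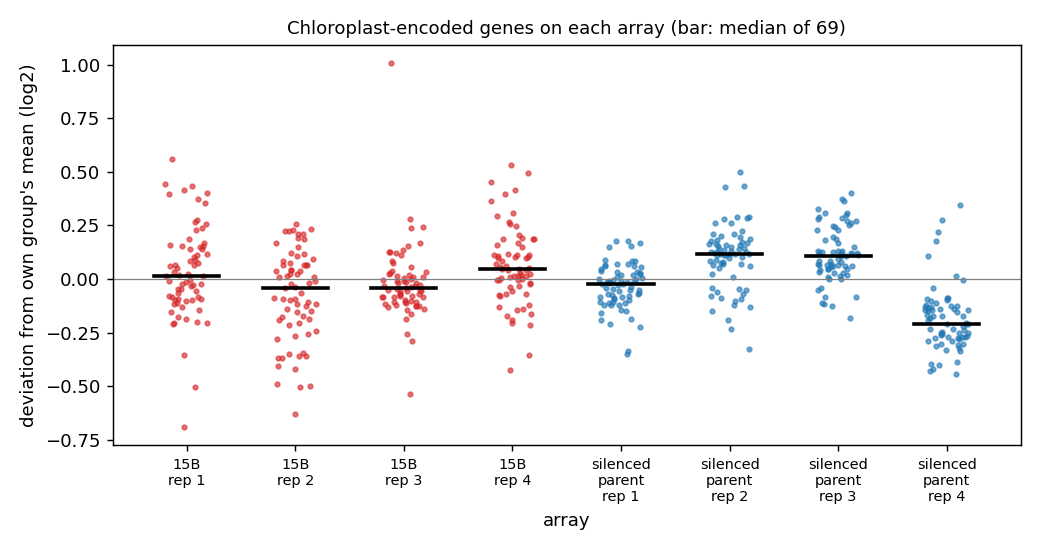
Deviation of each of the 69 chloroplast-encoded genes from its own group's mean (log2 scale) on each array, with the median as a bar. Replicate 4 of the silenced parent has the lowest median (-0.21), and medians of the 4 arrays of 15B lie between -0.04 and 0.05.

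Array measures of RNA quality were set beside these values. Signal at the 3' end of actin over that at its 5' end averaged 5.24 ± 0.954 in 15B and 6.61 ± 1.43 in the silenced parent (SD, n = 4). An exact two-sided permutation test gave p = 0.143 for actin, or 0.286 after Benjamini-Hochberg adjustment over the 4 measures tested. The same ratio averaged 1.72 ± 0.230 in 15B and 1.94 ± 0.332 in the silenced parent for GAPDH (exact permutation p = 0.343), and 3.07 ± 0.377 in 15B and 3.50 ± 0.346 in the silenced parent for ubiquitin (exact permutation p = 0.143; SD, n = 4). The smallest p this design allows is 0.0286. Within the silenced parent all 3 ratios were lowest on replicate 4, where the chloroplast-encoded genes were low too: 4.79 for actin, 1.59 for GAPDH and 3.07 for ubiquitin. Their part in the chloroplast signal was not tested.

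Mitochondrion-encoded messages, the other organelle transcripts without long poly(A) tails, were set beside the members. Of 23 probe sets named for them 13 passed the filter on low signal, more than 1 of them for nad1. Of these, 0 passed the test and 2 had an unadjusted p under 0.05, as had 21.5% of all tested probe sets. The median of those tested was 0.02, with 8 positive and 5 negative. The cytochrome c assembly gene ccb382 had 520, 465, 445 and 547 in 15B, all above the 412, 363, 404 and 427 of the silenced parent, and a difference of 0.29 (SE 0.09, adjusted p = 0.0687). Of all tested probe sets 5.58% had 15B wholly above in this way. A probe set of the NADH dehydrogenase gene nad5 whose probes several sequences share was at -0.34 (SE 0.12, adjusted p = 0.115, but 0.0476 without replicate 1 of the silenced parent). The other nad5 probe set lay below the filter and went the other way, averaging 18.6 in 15B and 11.1 in the silenced parent.

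Nuclear genes for chloroplast proteins were mostly close to level, as far as they had a named probe set. Of 53 listed photosynthesis loci 9 were tested, 0 rose and 1 fell, with a median of -0.06. That gene was LHCB4.2, which encodes a minor antenna protein of photosystem II. It gave 1668, 1591, 1603 and 1517 in 15B, all below the 1982, 1987, 2460 and 1750 of the silenced parent, with a difference of -0.35 (SE 0.09, adjusted p = 0.0483). The call rests close to the threshold: it was lost under 12 of 21 alternative settings, among them 7 of the 8 that left out 1 array, and its adjusted p ranged up to 0.330. Its sister genes LHCB4.1 and LHCB4.3 were at -0.06 and 0.01. Of 22 listed nuclear genes for plastid ribosomal proteins 4 were tested, with 0 calls, 0 at an unadjusted p under 0.05 and a median of 0.03; AT5G65220 and AT3G13120 had the smallest p among those with differences of -0.05 and 0.05. Of 20 loci for plastid RNA maturation 2 were tested, with 0 calls: LPA66, an editing factor, was at 0.29 (SE 0.13, adjusted p = 0.226), or 0.17 without replicate 3 of 15B, and the RNA-binding protein gene AT2G37220 at 0.16 (SE 0.12). Of 21 loci for plastid transcription only the polymerase gene AT5G15700 had a named probe set, below the filter.

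Organ makeup could be checked only thinly. Of 12 root markers 3 were tested, with 0 calls and 0 at an unadjusted p under 0.05. The summed signal of these markers was 2763 to 3195 in 15B and 2747 to 3264 in the silenced parent, carried by PYK10, a root glucosidase gene, at 0.00. The expansin genes EXPA18 and EXPA7 of root hairs were at 0.08 and -0.09. The 7 flower and seed markers had no named probe set. No chloroplast-encoded gene passed the test. In whole plants a change in the share of green cells and a change in plastid RNA per cell cannot be told apart.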

How the data were processed

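Total RNA of 8 arrays (4 per line) was compared. What was deposited is 1 linear intensity for each probe set and array. Every array's trimmed mean (2% at each end) lay at 100.0, so a common scale had been set before deposit; the summarising software is not given in the sources used here. Without the 64 controls, 22746 probe sets remained. Values were taken as log2(value + 10), which understates changes of dim probe sets, and 8924 probe sets with a mean under 30 were not tested. The test was that of limma 3.58.1 under R 4.3.3 (lmFit, eBayes with trend), two-sided, Benjamini-Hochberg over 13822 probe sets. These steps were run on simulated data with noise drawn independently for each probe set, planted changes being fitted under a lower signal filter. Shifts shared by the probe sets of an array were not simulated. No pair of arrays shared more than 0.958% of its values. Signals of different probe sets were not read as levels of RNA, since probes differ in brightness. The brightness classes, and words such as dim, refer to signal only. The number of arrays limits the precision.

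Names came from the platform annotation, updated through Entrez numbers to RefSeq (TAIR10.1), where chloroplast loci carry ArthCp tags. Of 13513 probe sets naming 1 gene, 13436 were found there, and 8730 are unnamed. Mitochondrial genes were matched by symbol or synonym. Members and lists were chosen with earlier results of these data known. Named by rule were members past the threshold, up to 3 per role with the smallest p, the 6 highest and 6 lowest differences and, per list, up to 4 calls or otherwise the 2 smallest p. Other members and the repeat probe sets, as well as PSI, antenna and root genes beside these, were named after their values were seen. Transcription units were set from textbook knowledge after the values were seen. Alternatives were other scalings, pseudocounts, filters and variance models, array weights, a replicate block and leaving out arrays. Deviations from the group means correlated, between arrays of the same number, at 0.25, -0.01, 0.05 and 0.06. Arrays of different numbers were not compared in this way, so these values do not settle whether the numbers pair the arrays. The main fit used no pairing.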

Additional observations from a re-analysis of the deposited data

Results flagged for a closer look

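Of 104 sets of 4 arrays tested for a lone extreme value, 5 had one. Chance alone would mark about 1 in 20 independent sets, but these sets share arrays, and 3 of the 5 lie on replicate 4 of the silenced parent. In 15B, replicate 1 read 72.8 for rpoB, a subunit gene of the plastid RNA polymerase, while its other replicates read 45.1 to 47.6. Replicate 3 of 15B read 100.9 for the editing factor gene LPA66, while its other replicates read 68.0 to 71.1; the LPA66 difference was 0.29 with it and 0.17 without it. Replicate 4 of the silenced parent read 1052 for the brighter rps12 probe set, while the other replicates of the silenced parent read 1260 to 1294. For the ribosomal protein gene rpl2 it read 2859, while they read 3464 to 3545. Its scanner background was 198, while theirs was 77.6 to 94.3.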

How the results depend on the processing

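No alternative gave a chloroplast-encoded gene that was higher in 15B (0 throughout). The number of lower ones, 0 as reported, was 1 (psbB, adjusted p = 0.0415) with each array centred on the members' median and 2 (psbB and psbN, adjusted p = 0.0427 and 0.0449) with array weights. Over all tested probe sets 3.93% passed with that centring and 8.86% with array weights, in either direction. Leaving out 1 array at a time gave 0 to 1 lower (psbN without replicate 1, ycf3 without replicate 4 of the silenced parent). The share of all tested probe sets that passed was then 3.78% to 7.18%. An alternative added after seeing the data, without both replicate 4 of the silenced parent and replicate 2 of 15B, gave 1, ycf3 at -0.46 (adjusted p = 0.0329), against 4.36% of all tested probe sets. The cause was not tested. The median difference of the members lay between -0.14 and -0.03 with single arrays left out, and at -0.09 with quantile normalization, -0.05 with median centring and 0.00 with centring on the members, which sets it there. Under a replicate block 0 members were called, the smallest adjusted p was 0.0762 and 1078 probe sets changed in all, against 926. The 4 members with an unadjusted p under 0.05 became 10 with quantile normalization, 8 with array weights and 2 to 17 with single arrays left out. The matching shares over all tested probe sets were not computed under these alternatives. Named genes beside the members crossed the threshold as well. LHCB4.2, lower as reported, lost its call under 12 of 21 alternatives, with differences of -0.42 to -0.25. The brighter rps12 probe set passed with quantile normalization (adjusted p = 0.0248), and ccb382 with the replicate block (0.0436). Signs of psaB, rbcL, atpA and cemA changed under 4, 5, 1 and 1 of the 21 alternatives. The share of all signal was 0.09 percentage points lower in 15B (-0.09), and -0.06 over _at probe sets alone.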
